A study of Mus musculus with 6 samples.

Results

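The genes described here are regulators that pattern the otic vesicle, the epithelial sac from which the inner ear forms. They were chosen by name as dorsal, ventral and lateral otic factors: Gbx2, Hmx2, Hmx3, Otx1, Otx2, Pax2, Pax8, Gata3 and Eya1. Of these 9 genes, 8 were matched to a probe set (a group of short probes for 1 transcript), and they had 11 of the 45101 probe sets on the array (a 1-colour Affymetrix mouse array). Pax2 was not analysed here, because the array annotation used here pairs no probe set with that symbol alone. Probe sets with several symbols were not used. The tissue was otic vesicle with the periotic mesenchyme around it, dissected from mouse embryos at embryonic day 11.5. Mest-KO pools had a T-Cre conditional Tbx1 knockout, and control pools were T-Cre conditional Tbx1 heterozygotes, so both groups carried T-Cre and the controls were not wild type. T-Cre is driven by regulatory sequence of the mesodermal gene T and recombines in mesoderm, so Tbx1 made in the otic epithelium is not its target. Each of the 6 arrays, 3 per genotype, held RNA from both ears of 3 pooled embryos of 1 genotype. The single probe set listed for Tbx1 gave 524.5, 567.3 and 446.7 for Control 1, 2 and 3 against 520.5, 578.0 and 409.9 for Mest-KO 1, 2 and 3, so the groups overlapped (log2 difference -0.03 ± 0.14; limma, adjusted p = 0.967). The sources used here do not place its probes relative to what Cre removes, so this reading does not check the genotype labels.

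Transcription factors that are restricted to one side of the otic vesicle specify which inner ear structures form there. The dorsal side gives rise to the endolymphatic duct and semicircular canals of the balance organ, the ventral side to the cochlea and saccule, and signals from the surrounding mesoderm and hindbrain set these domains. Gbx2, Hmx2 and Hmx3 are homeobox genes needed for dorsal, vestibular structures. Otx1 and Otx2 are homeobox genes of the ventral and lateral wall, and loss of Otx1 removes the lateral semicircular canal. Pax8 is among the earliest genes of the otic placode, Gata3 encodes a zinc finger factor needed for otic morphogenesis and auditory neurons, and Eya1 encodes a phosphatase and transcriptional coactivator made in otic epithelium, ganglia and mesenchyme.

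None of the 8 measured genes passed the test over all genes (0 of 8; limma, adjusted p under 0.05), where 0.148% of the 14170 genes tested passed. At an unadjusted p under 0.05 there were 2, Otx1 and Gata3, both lower in Mest-KO, against 3.24% of all genes lower at that p and 8.97% in either direction. The median log2 difference of the 8 was -0.02, with 4 higher and 4 lower, beside 0.01 over all genes. Log2 differences are Mest-KO minus control on the scale log2(intensity + 16), with the standard error of the fit, and they understate the change of dim genes. Intensities are on a linear scale, given as mean ± SD over 3 arrays. Exact permutation tests of 3 arrays against 3 cannot give a p below 0.1. In pooled tissue, fewer cells of a type and less RNA per cell cannot be told apart.

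**Figure D1:**
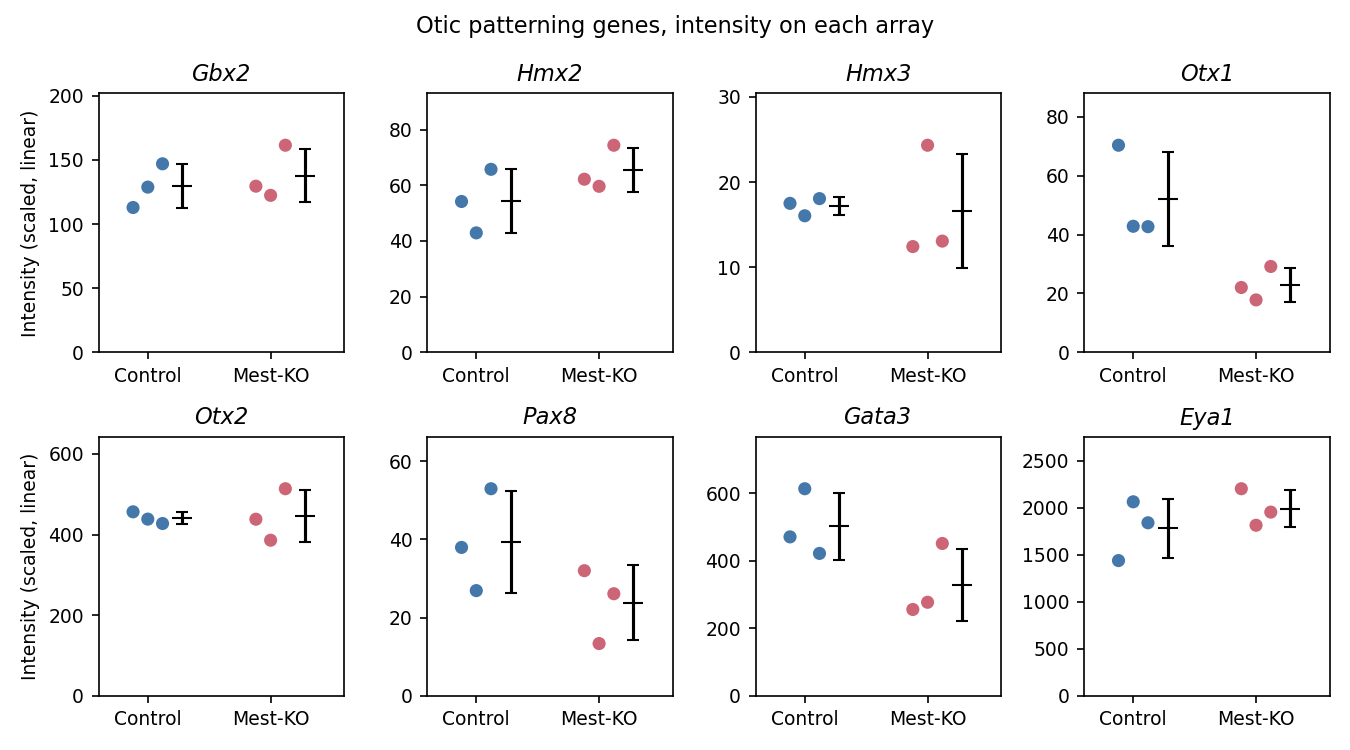
Intensity (linear scale, each axis from 0) of the probe set that stands for each of 8 genes on 3 control arrays (blue) and 3 Mest-KO arrays (red), with the mean and SD of each group in black. Only the Otx1 values of the groups do not overlap, and the highest Mest-KO value for Gata3 (451.2, Mest-KO 3) lies above the lowest control value (421.7, Control 3).

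No dorsal gene passed the test, and the ranges of the groups overlapped for all 3. The Gbx2 readings were 112.9, 128.8 and 147.0 for Control 1, 2 and 3 against 129.6, 122.4 and 161.5 for Mest-KO 1, 2 and 3. The groups overlapped, and the highest value was that of Mest-KO 3. Its log2 difference of 0.08 ± 0.16 (95% interval -0.27 to 0.42) did not pass (limma, adjusted p = 0.924). Hmx2 gave 54.2, 42.9 and 65.7 on the control arrays against 62.2, 59.6 and 74.4 on the Mest-KO arrays, and here too the ranges overlapped. The log2 difference was 0.22 ± 0.17 (interval -0.16 to 0.60; adjusted p = 0.763), and it became 0.10 without Control 2, 0.34 without Control 3 and 0.14 without Mest-KO 3. Hmx3, the neighbour of Hmx2 on chromosome 7, gave 17.5, 16.03 and 18.1 in control against 12.4, 24.3 and 13.1 in Mest-KO. Mest-KO 2 was the highest array and the other Mest-KO arrays were the lowest. All 6 values lay above 11.2, the highest intensity of 27 probe sets for bacterial transcripts that read as unspiked. That level came from Mest-KO 3, and the highest on each other array was 6.77 to 8.74. Hmx3 was thus dim and measured close to background, least so on Mest-KO 2 (log2 difference -0.04 ± 0.19, limma, adjusted p = 0.969). The intervals leave room for a difference of either sign for all of these genes.

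Otx1 was lower in Mest-KO than in control on every array and Otx2 was not. The Otx1 readings were 70.4, 42.8 and 42.7 for Control 1, 2 and 3 against 22.0, 17.8 and 29.2 for Mest-KO 1, 2 and 3. The groups did not overlap, as for 5.22% of all genes tested, counting those lower in Mest-KO, and Control 1 stood above the other controls. Mean intensity was 52.0 ± 15.96 in control and 23.0 ± 5.75 in Mest-KO, a control mean 2.26 times that of Mest-KO (exact permutation p = 0.1). The size of this ratio is uncertain, because the Mest-KO values lay near the highest unspiked intensity (11.2) and Control 1 raised the control mean. The log2 difference of -0.79 ± 0.20 had a 95% interval from -1.24 to -0.34 and an unadjusted p of 0.00280, the 188th smallest of 14170, but did not pass over all genes (limma, adjusted p = 0.209). Over the 19 alternatives in which Otx1 was tested the difference ran from -1.13 to -0.41, and the adjusted p from 0.0669 to 0.923. Without Control 1 the difference was -0.60 ± 0.20.

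Otx2 gave 456.4, 438.2 and 427.3 in control against 438.0, 385.9 and 513.6 in Mest-KO. The lowest and the highest array were both Mest-KO, and the controls lay between them. The log2 difference of 0.01 ± 0.12 had an interval of -0.27 to 0.28 (limma, adjusted p = 0.993). Set against Otx2 on the same array, the log2 level of Otx1 differed by a mean of -0.80 in Mest-KO. The groups did not overlap (exact permutation p = 0.1, the smallest this design can give). As Otx2 barely differed, this contrast largely restates the Otx1 difference. How many genes separate when set against Otx2 was not counted.

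**Figure D2:**
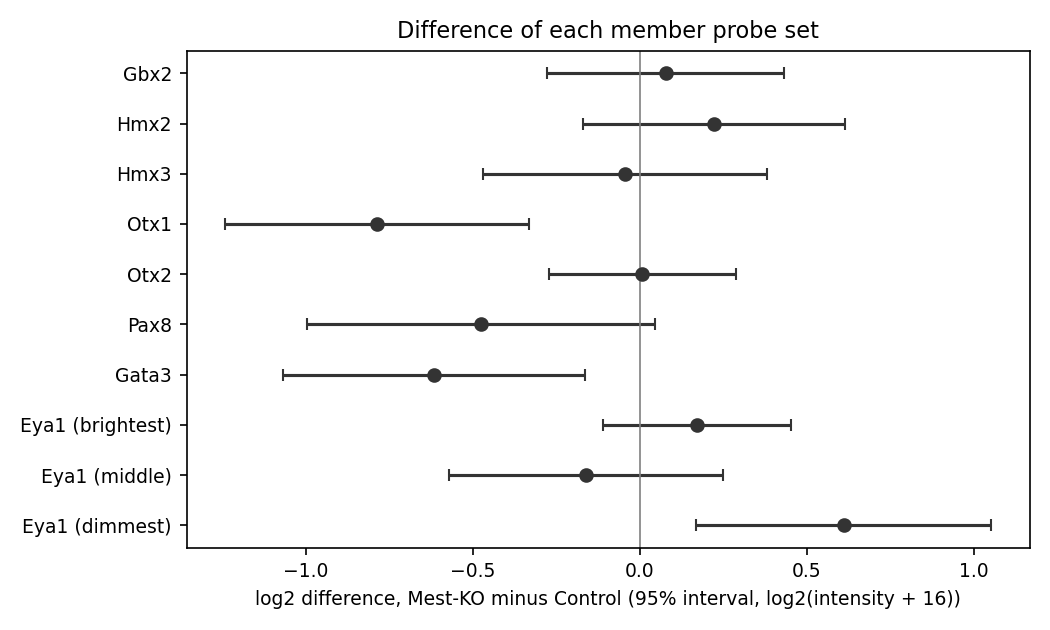
Log2 difference, Mest-KO minus control, with its 95% interval for the 10 probe sets that passed the filter on dim signal. Before adjustment the intervals of Otx1, Gata3 and the dimmest Eya1 probe set, 3 of the 10, lie off 0, as for 9.71% of all probe sets tested.

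For Gata3 the arrays Control 1, 2 and 3 gave 470.7, 613.4 and 421.7, and Mest-KO 1, 2 and 3 gave 255.5, 276.9 and 451.2. Control 2 was the highest array, and Mest-KO 3 lay between Control 1 and Control 3, so the groups overlapped. Mean intensity was 502.0 ± 99.6 in control and 327.9 ± 107.3 in Mest-KO (exact permutation p = 0.2). A log2 difference of -0.62 ± 0.21 (95% interval -1.07 to -0.16) had an unadjusted p of 0.0121 and did not pass over all genes (limma, adjusted p = 0.361). Single arrays moved it: without Mest-KO 3 it was -0.86 ± 0.16 (adjusted p = 0.102), without Control 2 it was -0.47 ± 0.21 and without Mest-KO 1 it was -0.47 ± 0.21. Relative to the mean of 8 otic epithelium markers on the same array, the Gata3 groups no longer overlapped (difference -0.60, exact permutation p = 0.1). The gap was narrow, with Control 3 at -0.866 and Mest-KO 3 at -0.883. The same comparison for Otx1 gave -0.77 with no overlap. How many of all genes separate under this scaling was not counted. This scaling was chosen after seeing the data. Of the 8 markers 4 were higher and 4 lower in Mest-KO, and their mean was not shown to measure otic epithelium alone.

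Pax8 was dim. Its brighter probe set gave 37.9, 26.9 and 53.0 in control against 32.0, 13.3 and 26.1 in Mest-KO. Control 3 was highest and Mest-KO 2 lowest, with Mest-KO 1 above Control 2. The log2 difference of -0.48 ± 0.24 had an interval of -0.997 to 0.044 (limma, adjusted p = 0.587). It shrank to -0.27 without Mest-KO 2 and to -0.30 without Control 3, and was -0.16 with the mean of both probe sets. The other Pax8 probe set was at or below the unspiked level on all 6 arrays (0.720 to 8.19), did not pass the filter and gives only a bound.

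The 3 probe sets of Eya1 differed in their readings, and are named here by their intensity order only to tell them apart. The brightest gave 1437, 2062 and 1838 in control against 2200 (Mest-KO 1), 1812 (Mest-KO 2) and 1952 (Mest-KO 3). The groups overlapped and Control 1 was the lowest array. It differed by 0.17 ± 0.13 on the log2 scale (interval -0.11 to 0.45; limma, adjusted p = 0.746). Single arrays moved this value to 0.026 (without Control 1), 0.095 (without Mest-KO 1) and 0.28 (without Control 2, unadjusted p 0.0423). The middle one gave 140.0, 194.9 and 177.3 in control against 142.2, 121.4 and 193.2 in Mest-KO, a log2 difference of -0.16 ± 0.19 (adjusted p = 0.835 over the 30855 probe sets tested). That difference was -0.29 without Control 1, -0.068 without Control 2, -0.026 without Mest-KO 2 and -0.33 without Mest-KO 3. The dimmest gave 66.5, 47.0 and 74.6 in control against 96.8, 83.9 and 132.4 in Mest-KO. All Mest-KO values exceeded all control values, as they did for 9.59% of the probe sets tested, and the log2 difference was 0.61 ± 0.20 (unadjusted p = 0.0114, adjusted p = 0.345). Without Control 2 or without Mest-KO 3 the unadjusted p was 0.0506 or 0.0554. On the same array, the log2 value of the dimmest minus that of the brightest differed between the groups by 0.44 with overlapping ranges (exact permutation p = 0.3). The dimmest minus the middle one, a contrast added after the values were seen, differed by 0.77 with no overlap between the groups (exact permutation p = 0.1, the smallest possible here). The dimmest had separated the groups on its own, and how many such contrasts separate was not counted. The sources used here do not place these probe sets within Eya1 transcripts.

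**Figure D3:**
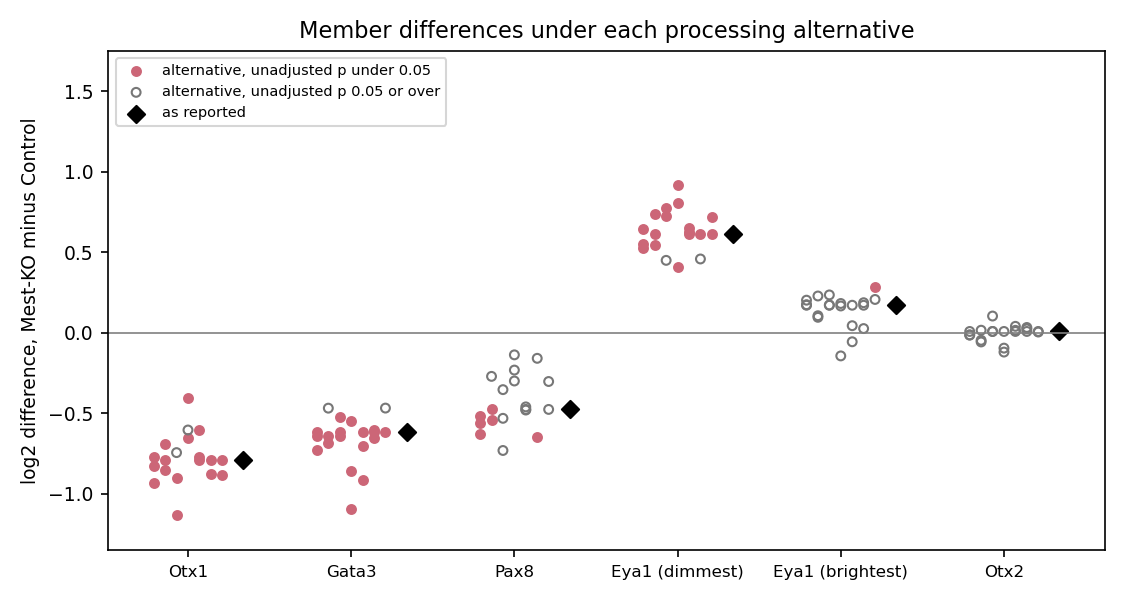
Log2 difference, Mest-KO minus control, of 4 genes and 2 Eya1 probe sets as reported (black diamonds) and under each alternative (red where the unadjusted p was under 0.05, open grey otherwise). Otx1 and Gata3 stayed below 0 and the dimmest Eya1 probe set stayed above 0 in every alternative in which each was tested, while Otx2 lay on both sides of 0.

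Sequence upstream of a start site is shown for Gata3, the member lower in Mest-KO at the unadjusted threshold for which a RefSeq promoter was available, and for Otx2, the paralogue of Otx1. Both are the 250 bases before a RefSeq start site on GRCm38.p6, minus strand, at chr2:9878601-9878850 for Gata3 and chr14:48665110-48665359 for 1 of 4 listed Otx2 starts. Capitals mark matches on either strand to any of 3 short motifs. The T-box core searched was AGGTGT. The core of GATA sites was taken as AGATAA. The letters TAATCC stood for the core of OTX sites.
Gata3: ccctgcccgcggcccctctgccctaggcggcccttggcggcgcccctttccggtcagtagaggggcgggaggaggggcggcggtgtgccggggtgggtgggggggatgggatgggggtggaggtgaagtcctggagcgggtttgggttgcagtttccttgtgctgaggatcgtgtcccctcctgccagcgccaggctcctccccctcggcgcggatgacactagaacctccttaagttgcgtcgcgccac
Otx2: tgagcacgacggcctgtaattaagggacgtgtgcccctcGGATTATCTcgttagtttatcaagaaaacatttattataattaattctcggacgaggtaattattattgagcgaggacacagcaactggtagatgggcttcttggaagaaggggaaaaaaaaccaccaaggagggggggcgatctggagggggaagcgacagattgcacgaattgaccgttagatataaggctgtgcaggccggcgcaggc
The Gata3 window held no match to any of the 3 motifs. In the Otx2 window a reverse-strand OTX core and a reverse-strand GATA core overlap, so the capitals run together. Of 32851 promoter windows of this length, 11.8% held the T-box core, 9.99% the GATA core and 6.25% the OTX core. Among the 13 windows of the listed genes (Pax2 included) the numbers were 0, 2 and 1, and every match was in an Otx2 window. The Otx2 window shown is the only listed window with both a GATA and an OTX core. The 13 windows are not all separate, since chr14:48667509-48667758 and chr14:48667645-48667894 of Otx2 overlap. A match is a description of the letters and was not tied to binding here.

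Across the 6 arrays the listed genes did not share one pattern. Pearson r of log2 levels is given as a description over 6 arrays that share scaling and dissection, and it includes the difference between the groups. It was 0.73 between Otx1 and Gata3, 0.64 between Otx1 and Pax8, 0.32 between Otx1 and Otx2 and -0.21 between Hmx2 and Hmx3. Between Hmx3 and Otx2 it was -0.77, and between Otx1 and Eya1 -0.66. The genes closest to Otx1 by this measure were Dapl1 (0.995), Dppa5a (0.992) and Pym1 (0.980), and 0.720% of all genes tested exceeded 0.9. Closest to Gata3 were Psme1 (0.994), Lyrm4 (0.992) and Rpl7l1 (0.985), with 1.14% of genes over 0.9. For Pax8 they were Xrcc6 (0.996), Slc5a3 (0.995) and Ube2j2 (0.978), with 0.565% over 0.9. For Eya1 they were Igdcc3 (0.994), Ints8 (0.989) and Cdcp1 (0.985), with 0.656% over 0.9.

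Other regulators of the same domains were read from lists fixed with earlier results known. Of 11 other dorsal otic regulators tested, 4 were higher and 7 lower in Mest-KO, with a median log2 difference of -0.19, and 0 passed over all genes. At an unadjusted p under 0.05, the homeobox genes Msx1 (-0.46 ± 0.11) and Msx2 (-0.43 ± 0.10) were lower and 0 were higher. Both are also made in mesenchyme. Hmx1, the paralogue of Hmx2 and Hmx3, differed by 0.37 ± 0.22 and is named outside the rule, with its value known. Of 11 other ventral and cochlear regulators, 9 were higher and 2 lower, with a median of 0.09, where 7622 of all 14170 genes tested were higher. The targeted gene Tbx1 (-0.03 ± 0.14) is in this list and was among the lower ones. Neurog1, which starts neuron formation in the ventral otic vesicle, rose and passed narrowly (1.15 ± 0.19, limma, adjusted p = 0.0478). The part of cranial ganglion tissue in the Neurog1 difference was not tested. Fgf3, encoding a secreted growth factor, differed by 0.46 ± 0.18 (limma, adjusted p = 0.470).

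Of 13 tested partners and paralogues (among them relatives of Eya1, Dach genes, Gata2 and cofactors), 7 were higher and 6 lower, with a median of 0.02 and 0 past the threshold. Eya2 differed by 0.55 ± 0.17 (adjusted p = 0.317) and was the single member of this list with an unadjusted p under 0.05. The paralogue Gata2 differed by 0.13 ± 0.09 and is likewise named with its value known.

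The labelled tissue carried its markers. All 8 measured otic epithelium markers were above the unspiked level on all 6 arrays, among them Oc90, which encodes the main protein of otoconia (3075 ± 262.4 in control and 3484 ± 384.5 in Mest-KO). The summed intensity of these 8 ranged from 9605 to 11134 in control and from 9938 to 11565 in Mest-KO, and their median log2 difference was -0.03. The 3 with the smallest p were Sox10 (0.41 ± 0.08), Cdh1 (-0.37 ± 0.11) and Oc90 (0.18 ± 0.09), and 0 passed over all genes. The 14 periotic mesenchyme genes were above the unspiked level on all arrays too, with summed intensity from 26468 to 27623 in control and from 24286 to 26568 in Mest-KO. Of the 14, 5 were higher and 9 lower in Mest-KO, with a median log2 difference of -0.10. At an unadjusted p under 0.05, 1 was higher and 5 lower, against 5.73% and 3.24% of all genes. In that list Meox1 rose (1.15 ± 0.18), and Foxf1 (-0.96 ± 0.19) and Foxf2 (-0.66 ± 0.16) did not pass. Pearson r with the list mean over the 6 arrays was 0.80 for Gata3, 0.67 for Otx1 and -0.60 for Eya1. The part of mesenchyme in the differences of these genes was not tested.

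Neighbouring tissues that can also express these regulators did not read alike on all arrays. Of 15 tested hindbrain neural tube genes, 15 were lower in Mest-KO, 1 of them past the threshold (Skor1, -3.46 ± 0.49), with a median of -1.19. The next smallest p were those of Neurog2 (-1.89 ± 0.43) and Evx1 (-1.19 ± 0.29). The summed intensity of the 18 measured hindbrain genes ranged from 938.2 to 3196 in control and from 468.5 to 979.2 in Mest-KO, with 2 of the 18 at or below the unspiked level on all arrays. Relative to the mean of the 6 arrays, Control 1, 2 and 3 stood at 0.83, -0.17 and 0.91 for this list, and Mest-KO 1, 2 and 3 at -0.70, -0.11 and -0.76. The groups thus overlapped, with Mest-KO 2 above Control 2. On the same scale Otx1 stood at 0.76, 0.21 and 0.21 for Control 1, 2 and 3, and Gata3 at 0.24, 0.61 and 0.08. For Mest-KO 1, 2 and 3 Otx1 stood at -0.42, -0.59 and -0.17, and Gata3 at -0.61, -0.50 and 0.18. With the hindbrain list as a covariate, Otx1 differed by -0.74 ± 0.35 and Gata3 by -1.10 ± 0.29. With Control 1 and Control 3 both left out the control group is 1 array, assumed to vary like the Mest-KO arrays, which alone give the spread; there Otx1 differed by -0.60 and Gata3 by -0.92. Neither gene passed over all genes in these fits (limma, adjusted p from 0.610 to 0.923). These fits cannot separate hindbrain tissue from genotype, because the list itself was lower in Mest-KO. The part of hindbrain tissue in the Otx1 and Gata3 differences was not tested.

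Pharyngeal endoderm genes read lower in Mest-KO, with 8 of 9 tested lower and a median of -0.18. Foxa1 fell (-1.34 ± 0.17), and Shh (-1.50 ± 0.27) and Pax1 (-1.47 ± 0.30) did not pass. These had the smallest p, and the other tested genes ran from -0.35 ± 0.22 (Foxa2) to 0.12 ± 0.17 (Sox17), with Pax9 at -0.15 ± 0.14. Whether the named genes were read from endoderm alone was not tested. Control 1, 2 and 3 stood at 0.38, 0.00062 and 0.33 for this list, and Mest-KO 1, 2 and 3 at -0.22, -0.32 and -0.16, relative to the mean of all arrays. The 3 Mest-KO arrays had the same order for this list and for Otx1. Control 2 and Control 3 were nearly level for Otx1 (0.210 and 0.207), while Control 2 was the lowest control for this list. Pearson r between Otx1 and the list mean over the 6 arrays was 0.92, which includes the difference between the groups. For Otx1 it was 0.71 with the hindbrain list and -0.87 with the cranial ganglion list. Summed endoderm intensity over 10 measured genes ranged from 7642 to 7899 in control and from 5824 to 7018 in Mest-KO. The part of endoderm in the Otx1 difference was not tested.

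**Figure D4:**
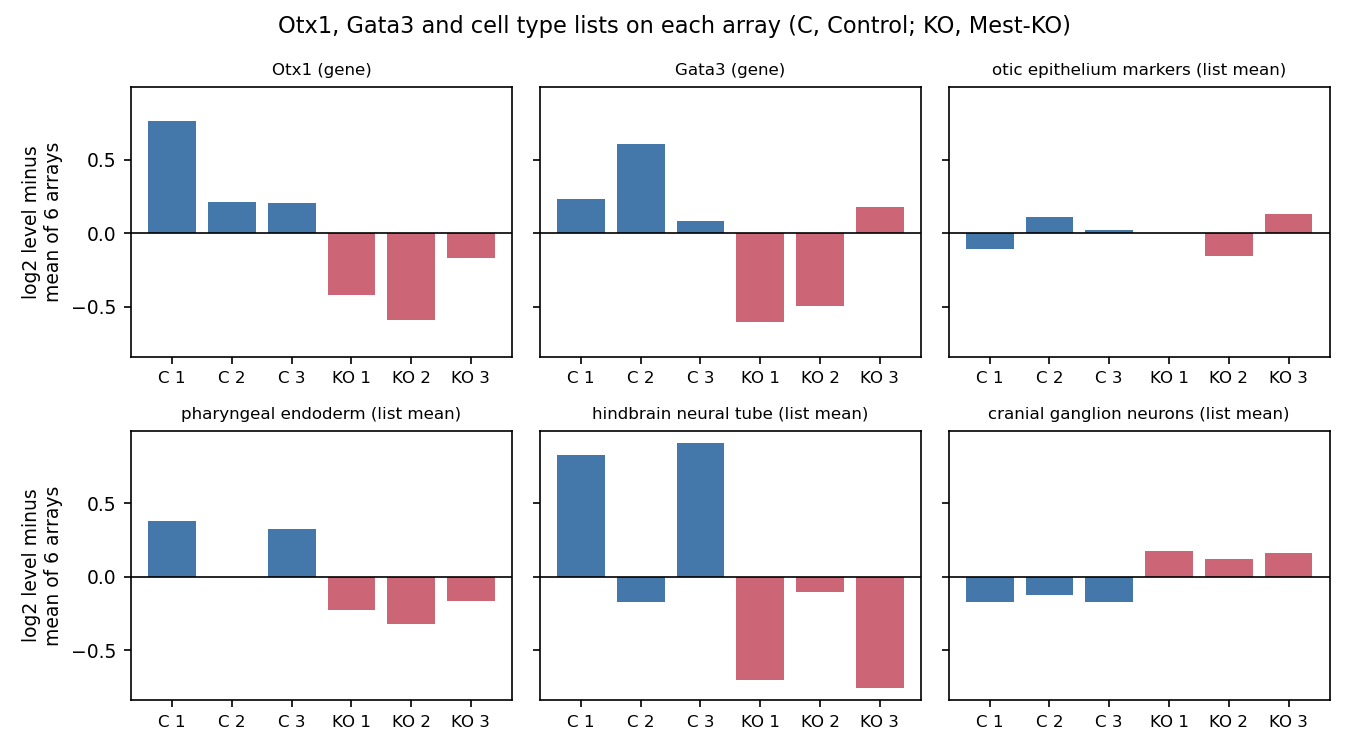
Log2 level of Otx1 and Gata3 and mean log2 level of 4 gene lists on each array, each relative to its mean over the 6 arrays (bars; blue, control; red, Mest-KO). Otx1 and the endoderm list are lower on every Mest-KO array than on any control, the ganglion list is higher, and the hindbrain list is low in Control 2 as well.

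Cranial ganglion neuron genes read higher in Mest-KO in 14 of 14 tested, with a median of 0.27. Pou4f1 rose (0.59 ± 0.08), and Neurod1 (0.34 ± 0.07) and Neurod4 (0.58 ± 0.14) did not pass. Their summed intensity ran from 35668 to 38266 in control and from 42083 to 43817 in Mest-KO. The part of ganglion cells, which can also make Gata3 and Eya1, in the differences of these genes was not tested. Surface ectoderm genes (9 tested, 3 higher, 6 lower, median -0.10) had a summed intensity of 6678 to 8145 in control and 6437 to 9062 in Mest-KO, and the 3 with the smallest p were Tfap2c (0.61 ± 0.16), Perp (-0.23 ± 0.10) and Grhl3 (-0.43 ± 0.19). Of 10 midbrain and isthmus genes, where Otx2 and Gbx2 are also known, 4 were bright enough to test and 3 were at or below the unspiked level on all arrays. Their summed intensity ran from 75.2 to 146.3 in control and from 106.1 to 134.1 in Mest-KO, and the 3 with the smallest p were Sall3 (0.61 ± 0.16), Barhl1 (-0.38 ± 0.21) and Fgf17 (0.19 ± 0.21). For the Y-linked list (3 tested) Control 1, 2 and 3 stood at -0.49, 0.43 and -0.43, and Mest-KO 1, 2 and 3 at 0.26, 0.23 and 0.0058, so the pools differed in their makeup by sex. With this list as a covariate Otx1 differed by -0.66 ± 0.22 and Gata3 by -0.70 ± 0.23.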

How the data were processed

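Deposited values were linear intensities from Affymetrix Expression Console 1.1, as the submitters' processing notes name it. How probes were summarized is not given in the sources used here. Every array had a mean of 500.002 once the extreme 2% of probe sets at each end were set aside, so shifts common to most genes cannot be seen. Precision is limited by the number of arrays. The labels call them biological replicates. The members and lists were chosen with earlier results of these data known. Of the 45101 probe sets, 64 controls were left out, 34945 had 1 gene symbol in the platform annotation, 932 had several and 9160 were not listed. The deposited intensities were converted to log2(value + 16). Each gene used its brightest probe set on average, kept above the 30th percentile (14170 of 18193 genes), and a second fit covered 30855 probe sets. Both used limma 3.58.1 in R 4.3.3 (lmFit, eBayes with trend, genotype alone, two-sided, Benjamini-Hochberg at 0.05), tested on simulated data. Named genes were all members, listed otic regulators and partners with an unadjusted p under 0.05, the 3 smallest p of each other list, and the 3 genes most like each of 4 members. Alternatives covered normalization, pseudocount, filter, probe set choice, variance model, array weights, a replicate block, covariates and arrays left out. RefSeq promoters (GRCm38.p6) were available for 7 of the 9 genes.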

Additional observations from a re-analysis of the deposited data

How the results depend on the processing

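No member passed over all genes under any of the 20 alternatives run. Otx1, Gata3, Pax8, Hmx2 and the middle and dimmest Eya1 probe sets kept their direction in every alternative in which each was tested. Otx1 had an unadjusted p under 0.05 in 17 of 19 and Gata3 in 18 of 20. Members with an unadjusted p under 0.05 numbered 2 as reported (Otx1 and Gata3). They numbered 3, with Pax8 added, under quantile normalization, median centring, array weights and the replicate block, and 3 without Control 2 (Otx1, Pax8 and Eya1). Without Mest-KO 1 the 2 were Otx1 and Pax8. There was 1 with the filter at the 50th percentile, which left Otx1 untested, 1 with the hindbrain covariate and 1 without Control 1 and Control 3 both, a fit whose control group is the single array Control 2. The count of 21 genes past the threshold became 78 with arrays centred on their medians (22 higher and 56 lower), 2 with no filter, 6 with the mean of all probe sets, 1 without the variance trend, 9 with the replicate block, 4 with the hindbrain covariate, 5 with Control 2 as the single control array and 67 with arrays centred on the otic epithelium markers (27 higher and 40 lower), and ran from 2 (without Control 1) to 82 (without Control 2) with 1 array left out. The cause was not tested. Same-numbered arrays did not deviate together (r of deviations -0.03, -0.11 and -0.15), so no pairing by number was seen. Arrays with different numbers were not compared, and these values cannot show that pairing was absent. With the replicate block Otx1 had an unadjusted p of 0.00409 (limma).

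Differences close to 0 changed sign. Otx2 was -0.015 with quantile normalization, -0.058 with median centring, -0.047 with array weights (-0.048 over probe sets) and -0.12 with the hindbrain covariate. Hmx3 was 0.018 with array weights (0.033 over probe sets), 0.23 with the hindbrain covariate and 0.0062 without Control 1 and Control 3. Gbx2 was -0.010 with the hindbrain covariate, and Eya1 was -0.14 there and -0.056 without Control 1 and Control 3. With 1 array left out, Otx2 ran from -0.10 to 0.10, Hmx3 from -0.21 to 0.045 and Gbx2 from -0.030 to 0.16. Signal near background limits Hmx3, Pax8 and, in Mest-KO, Otx1.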
